A study of Mus musculus with 12 samples.

Results

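Proteasome genes were followed across 12 Affymetrix arrays of mouse lymph node cells. The set was chosen by gene name: every gene whose single array symbol begins with Psma to Psmg and a digit, plus Pomp, and without the immunoproteasome genes Psmb8, Psmb9 and Psmb10. It holds 47 of the 18193 genes with a probe set of their own, and the rule uses names only. All mice were of the P14-TCR strain, whose T cells carry a transgenic receptor for a viral peptide, and were either wild type or null for PKD2 (protein kinase D2, encoded by Prkd2), a kinase activated below the antigen receptor. Lymph nodes of 3 mice per genotype were dispersed, and cells of each mouse were cultured for 4 h without peptide or with the antigenic peptide gp33-41 at 62.5 ng/ml. This gave 4 groups of 3 arrays: unstimulated wild type, wild type with peptide, unstimulated PKD2-null and PKD2-null with peptide. The ages of the mice and the design of the null allele are not given in the sources used here. Each gene is represented by the probe set with the highest mean over the 12 arrays. Levels are log2 signals, changes are differences of log2 signals between group means of 3 arrays, given with limma's standard error (SE), and a change counts as called at a two-sided limma p, adjusted by Benjamini and Hochberg over 45037 probe sets, under 0.05.

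The proteasome is the main protease for ubiquitin-tagged proteins. Its core particle is a barrel of alpha and beta rings in which catalytic beta subunits cut proteins into peptides. A regulatory cap, made of a base with an ATPase ring and a lid, recognises, unfolds and feeds in the substrates, and other activators can take the place of the cap. Assembly chaperones build the rings and are not part of the finished particle. In lymphocytes the proteasome removes regulators such as cyclins and the inhibitors of NF-kappaB, and it makes peptides for presentation on MHC class I. By these roles the set holds 8 alpha ring genes, 8 beta ring genes, 6 base ATPases, 11 other base and lid subunits, 4 activators and inhibitors, 8 assembly chaperones, and 2 genes that the name rule catches although they encode no subunit (Psmc3ip and Psme3ip1). Psme2 shares its probe set with another symbol and was not used.

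The arrays were alike in scale, with medians of 4.67 to 4.72. Prkd2 lay at 9.99 to 10.34 in unstimulated wild-type cells and at 5.80 to 6.33 in unstimulated null cells, and at 8.16 to 8.52 and 5.36 to 5.60 with peptide, so the targeted gene was lower in null cells on every array. In unstimulated wild-type cells the T cell markers ran from 9.27 for Cd5 to 13.03 for Cd3d. The CD8 T cell markers Cd8a and Cd8b1 were at 10.46 and 12.27, and the CD4 T cell markers Cd4 and Foxp3 at 5.97 and 4.73. Of these 2 CD4 T cell markers 1 was called higher with peptide in each genotype. B cell markers were also present, so the cells were a mixture. The mean level of 9 measured B cell markers ran from 8.99 to 9.07 in unstimulated and 8.17 to 8.40 in stimulated wild-type cells, and from 9.49 to 10.18 and 8.80 to 9.51 in null cells. It was thus lower with peptide and higher in null cells. The ranges did not overlap between genotypes, nor between the 2 wild-type groups, and they overlapped between the 2 null groups. The gap from the 5′ to the 3′ actin control probes, a sign of RNA quality, had means of 0.278 without and 0.211 with peptide in wild type, and of 0.278 and 0.2 in null cells. The mean of the 2 CD8 T cell markers lay between 11.27 and 11.5 without and between 10.34 and 10.7 with peptide in wild type, without overlap. In null cells it lay between 10.71 and 11.42 and between 10.49 and 10.86, with overlap. Of 5 measured T cell markers 1 rose and 3 fell in wild type, and 1 rose and 1 fell in null cells. The 3 plasma cell markers were higher in null cells by medians of 1.04 without and 0.89 with peptide, of which 1 was called with peptide, and 2 of them fell with peptide in each genotype. Of 2 measured NK cell markers 1 fell with peptide in each genotype and 1 was called lower in null cells with peptide. The mean of 8 myeloid markers was 6.82 without and 6.72 with peptide in wild type, and 7.1 and 6.78 in null cells. Without peptide 7 of these 8 were higher in null cells, and 0 were called. The mean of 3 stromal markers lay between 5.75 and 5.77 without and between 5.18 and 5.42 with peptide in wild type, and that of 3 erythroid markers ran from 4.63 to 5.78 in unstimulated wild-type cells and from 3.94 to 4.3 in unstimulated null cells. The part of these marker and actin differences in the results was not tested. In such bulk samples a change in the share of a cell type and a change of RNA per cell cannot be told apart.

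Promoter sequences of 39 of the 47 genes were held in the RefSeq table used (GRCm38.p6), as 42 promoters. These 4 short motifs were searched on both strands in the 250 bases before the start: CCGGAAG (the core bound by ETS factors), CCAAT (the box bound by NF-Y), CACGTG (the E-box bound by MYC and MAX) and TGACNNNGC (the core of the antioxidant response element, bound by the proteasome regulators NFE2L1 and NFE2L2). CCGGAAG stood in 15 of the 42 promoters (35.7%), against 6.91% of all 32851 promoters in the table and 10.1% of those of genes on the array. CCAAT stood in 35.7% against 33.8% of all promoters and 34.7% of those of genes on the array. In the same order the shares were 9.52%, 6.02% and 7.38% for CACGTG and 11.9%, 10.2% and 11.5% for TGACNNNGC. Among the 4 motifs the ETS core had the largest gap to the share of all promoters. The shares describe letters, not binding. The 4 promoters below show these motifs in genes that the results turn on, with the matches in capitals and each read 5′ to 3′ along the gene. They belong to Psme3, the gene with the largest rise, to the lid gene Psmd12, to the assembly chaperone gene Psmg1 and to the catalytic gene Psmb5.
Psme3, chr11:101315963-101316212, plus strand: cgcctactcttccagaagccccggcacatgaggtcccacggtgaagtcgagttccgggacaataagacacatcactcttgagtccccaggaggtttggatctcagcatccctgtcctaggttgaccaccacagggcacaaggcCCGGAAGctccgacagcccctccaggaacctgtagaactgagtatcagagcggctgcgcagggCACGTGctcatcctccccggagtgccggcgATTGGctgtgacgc
Psmd12, chr11:107479278-107479527, plus strand: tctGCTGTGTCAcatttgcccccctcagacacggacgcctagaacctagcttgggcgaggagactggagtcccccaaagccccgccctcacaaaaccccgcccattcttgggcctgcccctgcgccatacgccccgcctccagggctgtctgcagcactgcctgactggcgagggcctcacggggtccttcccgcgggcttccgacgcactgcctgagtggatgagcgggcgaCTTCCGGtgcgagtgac
Psmg1, chr16:95990961-95991210, minus strand: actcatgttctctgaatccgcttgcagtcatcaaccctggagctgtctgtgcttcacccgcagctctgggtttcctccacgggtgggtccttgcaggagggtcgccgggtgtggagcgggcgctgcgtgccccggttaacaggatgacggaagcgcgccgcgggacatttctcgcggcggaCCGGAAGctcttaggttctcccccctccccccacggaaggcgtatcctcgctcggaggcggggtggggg
Psmb5, chr14:54617996-54618245, minus strand: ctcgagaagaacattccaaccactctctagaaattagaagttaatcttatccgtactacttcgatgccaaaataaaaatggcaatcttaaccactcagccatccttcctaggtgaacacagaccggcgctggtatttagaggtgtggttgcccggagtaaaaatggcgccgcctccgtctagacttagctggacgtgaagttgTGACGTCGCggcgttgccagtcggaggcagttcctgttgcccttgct
In the first of them the E-box begins 44 bases and the ETS core 107 bases before the start of the gene, and CCAAT lies 10 to 14 bases before it on the opposite strand. In Psmd12 the ETS core lies 11 to 17 bases and the match to TGACNNNGC 239 to 247 bases before the start, both on the opposite strand. Psmg1 holds the ETS core alone, 69 bases before the start, and Psmb5 holds TGACNNNGC alone, 47 bases before it. The matches in Psme3 do not overlap one another, and neither do those in Psmd12.

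Within 4 h of peptide most proteasome genes rose in wild-type cells. Of the 47 genes 34 rose (72.3%) and 2 fell. Over all 18193 genes 15.1% rose and 20.4% fell, and over the 5035 genes with a mean level above 8, where 44 of the 47 lie, 32.2% rose and 38.6% fell. The median change of the set was 0.56, a 1.47-fold rise, against 0.01 over all genes and -0.09 over the genes above level 8. The changes ran from -0.41 for Psme4 to 2.11 for Psme3. Most rises were modest in size: the median change of each class of subunits was between 0.46 and 0.61 for the alpha ring, the beta ring, the ATPases and the other base and lid genes, and it was 0.95 for the assembly chaperones. In 40 of the 47 genes the 3 values with peptide did not overlap the 3 without. This was not counted over all genes, so the figure has no background beside it.

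The same genes rose in PKD2-null cells. There 32 rose (68.1%), all of them among the 34 of wild type, and 0 fell at this threshold. In either direction 38 of the 47 had an unadjusted p under 0.05. So did 7107 of all 18193 genes and 3682 of the 5035 above level 8. Over all genes 12.5% rose and 19.0% fell, and over the genes above level 8 the shares were 29.4% and 34.9%. The median change of the set was 0.42 (1.34-fold), against -0.02 over all genes. Taken mouse by mouse, the median change over the 47 genes was 0.50, 0.52 and 0.51 in the 3 wild-type mice. In the 3 null mice it was 0.47, 0.38 and 0.48. Of the 47 genes 35 went up in all 6 mice, a count not made over all genes. The genes Psma1 and Psmd13 were called in wild type and not in null cells, and the difference of the effects was not called for either (adjusted p = 0.93 and 0.84, limma).

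**Figure D1:**
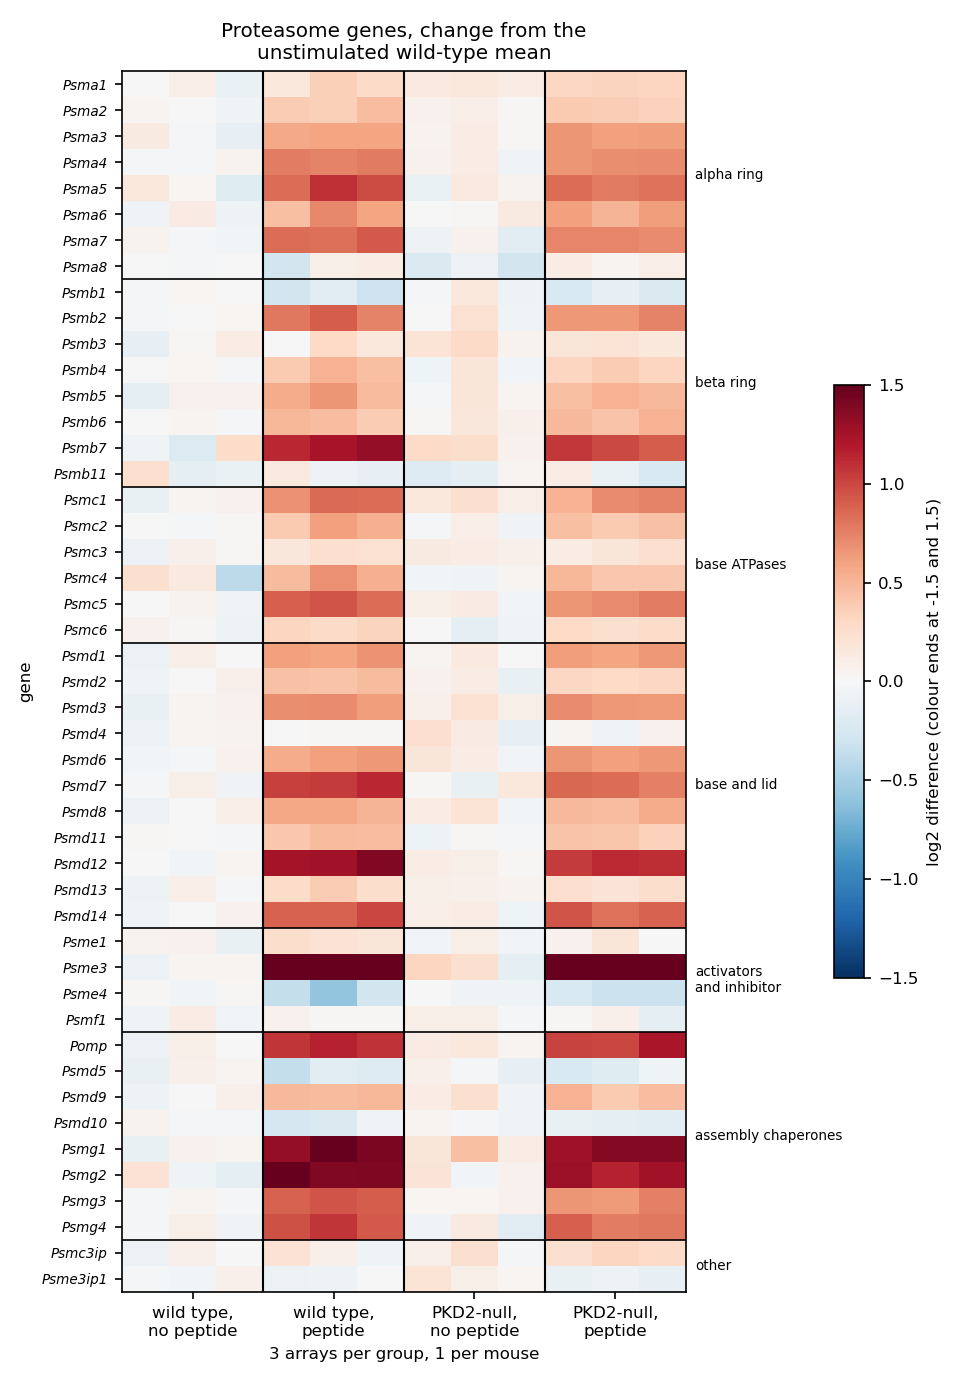
Log2 signal of the 47 genes on each of the 12 arrays, as the difference from the mean of the 3 unstimulated wild-type arrays (colour), by class. Both blocks with peptide are red for most genes and the unstimulated null block stays near 0, with Psme3, Psmg1, Psmg2, Psmd12 and Psmb7 darkest and Psmb1 and Psme4 blue.

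Alpha ring genes, which form the outer rings of the core and its gate, rose in 7 of 8 in wild type and 6 of 8 in null cells. Psma5 had the largest rise, from 10.73, 10.61 and 10.39 to 11.41, 11.67 and 11.55 in wild type (0.96, SE 0.105, adjusted p = 1.3e-05, limma) and from 10.48, 10.72 and 10.63 to 11.41, 11.36 and 11.39 in null cells (0.78, adjusted p = 0.00011). Psma7 went from 10.85, 10.78 and 10.75 to 11.63, 11.62 and 11.71 in wild type (0.86, adjusted p = 3.1e-06) and from 10.72, 10.86 and 10.62 to 11.52, 11.53 and 11.50 in null cells (0.79, adjusted p = 1e-05). In neither gene did an array with peptide reach down to one without. A dimmer probe set of Psma5, the one of its 3 whose name does not end in a_at, was not called in wild type (0.14, adjusted p = 0.33). In null cells that probe set was called (0.32, adjusted p = 0.026, limma). The remaining probe set of Psma5, bright like the one used, gave 0.91 in wild type and 0.71 in null cells. Psma4 rose from 10.95, 10.94 and 11.03 to 11.74, 11.72 and 11.75 (0.76) in wild type and from 11.04, 11.08 and 10.92 to 11.64, 11.67 and 11.68 (0.65) in null cells. The rises of Psma6, Psma3, Psma2 and Psma1 in wild type were 0.59, 0.58, 0.40 and 0.27. Psma8, the germ cell form of an alpha subunit, lay between 3.25 and 3.64 on all 12 arrays, below the array medians, and was not called. The rises across this ring were therefore graded, with a 1.95-fold change for Psma5 and a 1.20-fold change for Psma1.

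The beta ring went both ways. Of 8 genes 5 rose in both genotypes, and Psmb1 fell in wild type. Psmb7, which encodes the catalytic subunit with trypsin-like activity, had the largest rise, from 7.63, 7.49 and 7.97 to 8.83, 8.93 and 9.02 in wild type (1.23, 2.34-fold, SE 0.12, adjusted p = 4.8e-06, limma). In null cells it went from 7.98, 7.96 and 7.76 to 8.76, 8.69 and 8.60 (0.78, 1.72-fold, adjusted p = 0.0003). Psmb2, a structural subunit, went from 10.27, 10.29 and 10.32 to 11.08, 11.20 and 11.04 in wild type (0.81) and from 10.29, 10.52 and 10.23 to 10.94, 10.94 and 11.04 in null cells (0.62). Psmb4, also structural, rose by 0.46 and 0.31.

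Psmb1 ran against its ring. This structural subunit gene had values of 11.97, 12.02 and 11.99 without and 11.72, 11.82 and 11.68 with peptide in wild type (-0.25, SE 0.0815, adjusted p = 0.032, limma). In null cells they were 11.97, 12.15 and 11.92 against 11.77, 11.87 and 11.78 (-0.20, adjusted p = 0.095), and the fall was called there with quantile normalization (-0.29, adjusted p = 0.026), without dim probe sets (adjusted p = 0.049) and with trend and robust variances (adjusted p = 0.028). Stimulated values lay below unstimulated values in both genotypes, without overlap. The call was lost in wild type without unstimulated replicate 1, 2 or 3 (adjusted p = 0.065, 0.09 and 0.068) and without peptide replicate 1 or 3 (0.084 and 0.11), while the change stayed between -0.26 and -0.23. It was also lost with the mean over all its probe sets (-0.26, adjusted p = 0.16) and with only the groups compared in the fit (adjusted p = 0.052). The same held on its dimmer probe set whose name ends in neither a_at nor x_at (-0.39, adjusted p = 0.43). Psmb3, another structural subunit, was at 11.06, 11.20 and 11.30 without and 11.19, 11.48 and 11.35 with peptide in wild type, and at 11.39, 11.47 and 11.24 and 11.37, 11.39 and 11.35 in null cells. Its groups overlapped in both genotypes and it was not called. A second probe set of Psmb3 rose in wild type (0.29, adjusted p = 0.018). Psmb11, the thymus form of a catalytic subunit, lay between 3.42 and 3.90 on all arrays.

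The 3 constitutive catalytic genes rose together, while 2 of their 3 immunoproteasome counterparts fell. Psmb5, the chymotrypsin-like subunit, went from 10.45, 10.65 and 10.65 to 11.14, 11.24 and 11.06 in wild type (0.56, SE 0.0871, adjusted p = 0.00023, limma) and from 10.56, 10.76 and 10.62 to 11.04, 11.10 and 11.07 in null cells (0.42, adjusted p = 0.0027). Psmb6, the caspase-like subunit, went from 10.93, 10.97 and 10.90 to 11.43, 11.40 and 11.31 in wild type (0.45, adjusted p = 0.00041) and from 10.95, 11.10 and 11.01 to 11.42, 11.36 and 11.45 in null cells (0.39, adjusted p = 0.0016). Psmb8 and Psmb10, which replace Psmb5 and Psmb7 in the interferon-induced particle, changed by -0.46 and -0.61 in wild type (adjusted p = 0.018 and 0.007) and by -0.48 and -0.55 in null cells (adjusted p = 0.017 and 0.015). Psmb9, the counterpart of Psmb6, had means of 10.11 and 10.55 in wild type and 10.19 and 10.06 in null cells and was not called in either. Its null values with peptide were 9.98, 10.61 and 9.58, a wider spread than in any other group of these 6 genes. Each gene is read against itself here, and the signals do not rank the genes against each other.

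**Figure D2:**
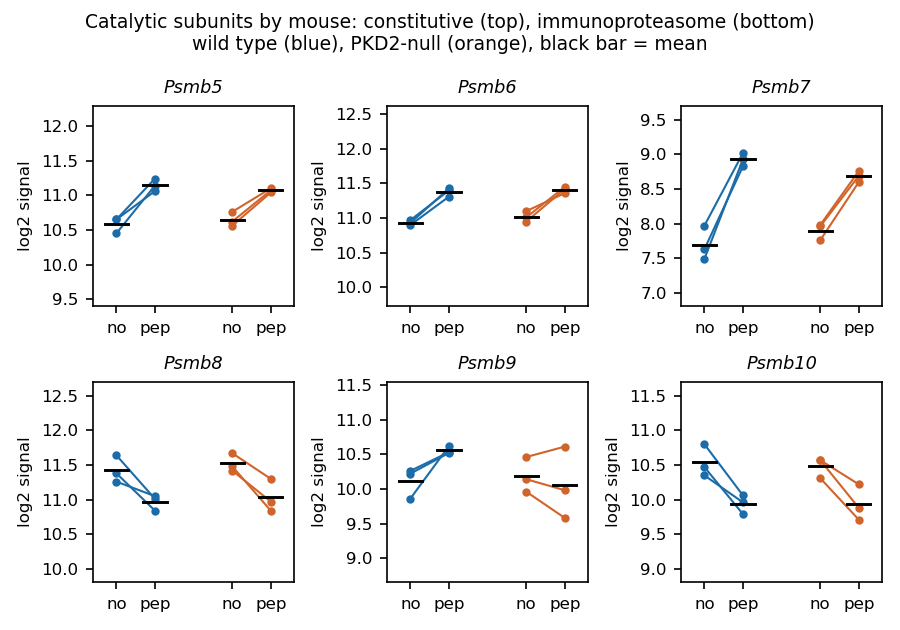
Log2 signal of the 3 constitutive catalytic subunit genes (top) and the 3 immunoproteasome genes (bottom), without (no) and with (pep) peptide, lines joining the 2 arrays of a mouse, wild type in blue and PKD2-null in orange, black bars at the group means, all panels spanning the same log2 range. Psmb5, Psmb6 and Psmb7 go up in all 6 mice, and Psmb8 and Psmb10 go down on average by 0.46 to 0.61.

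The ATPases of the base, which form the ring that unfolds substrates, rose in 5 of 6 in both genotypes. Psmc5 went from 9.89, 9.94 and 9.83 to 10.78, 10.83 and 10.73 in wild type (0.89, SE 0.0778, adjusted p = 1.9e-06, limma) and from 9.98, 10.01 and 9.84 to 10.55, 10.60 and 10.66 in null cells (0.66, adjusted p = 3.5e-05). Psmc1 went from 9.09, 9.24 and 9.26 to 9.88, 10.05 and 10.03 in wild type (0.79) and from 9.36, 9.44 and 9.30 to 9.72, 9.91 and 9.94 in null cells (0.49). Both were separated from their unstimulated values on every array. With the mean over all probe sets the wild-type change of Psmc1 was 0.39. Psmc4 had unstimulated wild-type values of 11.29, 11.20 and 10.66, the widest spread of the class, and went to 11.53, 11.73 and 11.58 (0.56, SE 0.138, adjusted p = 0.007). In null cells it went from 11.01, 11.00 and 11.09 to 11.55, 11.45 and 11.46 (0.46, adjusted p = 0.028), a call that was lost when any 1 of the 6 null arrays was left out (adjusted p = 0.051 to 0.088, change 0.42 to 0.48). Psmc2 and Psmc6 changed by 0.52 and 0.31 in wild type. Psmc3 was not called (0.21, adjusted p = 0.053, and 0.07 in null cells, adjusted p = 0.64).

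The other base and lid genes rose in 10 of 11 in wild type and 9 of 11 in null cells. Psmd12, a scaffold subunit of the lid, had the largest rise of the cap, from 9.27, 9.24 and 9.32 to 10.52, 10.54 and 10.67 in wild type (1.30, 2.47-fold, SE 0.0751, adjusted p = 5.8e-08, limma) and from 9.39, 9.37 and 9.29 to 10.33, 10.40 and 10.38 in null cells (1.02, 2.02-fold, adjusted p = 8.2e-07). Psmd14, the deubiquitinase of the lid, went from 10.65, 10.70 and 10.78 to 11.59, 11.60 and 11.71 in wild type (0.92, adjusted p = 2e-06) and from 10.81, 10.82 and 10.65 to 11.65, 11.53 and 11.60 in null cells (0.83, adjusted p = 7.5e-06). Psmd7 encodes the partner with which that deubiquitinase works as a pair. It went from 9.32, 9.43 and 9.29 to 10.37, 10.40 and 10.48 in wild type (1.07, adjusted p = 9.4e-07) and from 9.37, 9.24 and 9.50 to 10.21, 10.19 and 10.10 in null cells (0.80, adjusted p = 1.7e-05). In all 3 genes every array with peptide lay above every array without. The 2 other, dimmer probe sets of Psmd7 gave 0.21 and 0.03 in wild type, neither called. In null cells they gave 0.43, which was called (adjusted p = 0.026, limma), and -0.01, which was not. The mean over all probe sets of Psmd7 gave 0.44 in wild type and 0.41 in null cells, both called. The large scaffold subunits of the base, Psmd1 and Psmd2, changed by 0.63 and 0.45 in wild type and 0.56 and 0.28 in null cells. Psmd3, Psmd6, Psmd8, Psmd11 and Psmd13 rose by 0.31 to 0.67 in wild type.

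Psmd4, a ubiquitin receptor of the cap, was the gene of its class that was not called in wild type. Its values were 11.06, 11.19 and 11.20 without and 11.14, 11.17 and 11.17 with peptide in wild type, and 11.40, 11.27 and 11.03 and 11.19, 11.08 and 11.21 in null cells. The groups overlapped in both genotypes (0.01 and -0.07, adjusted p = 0.97 and 0.69, limma), and the 95% interval of the wild-type change ran from -0.20 to 0.22.

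**Figure D3:**
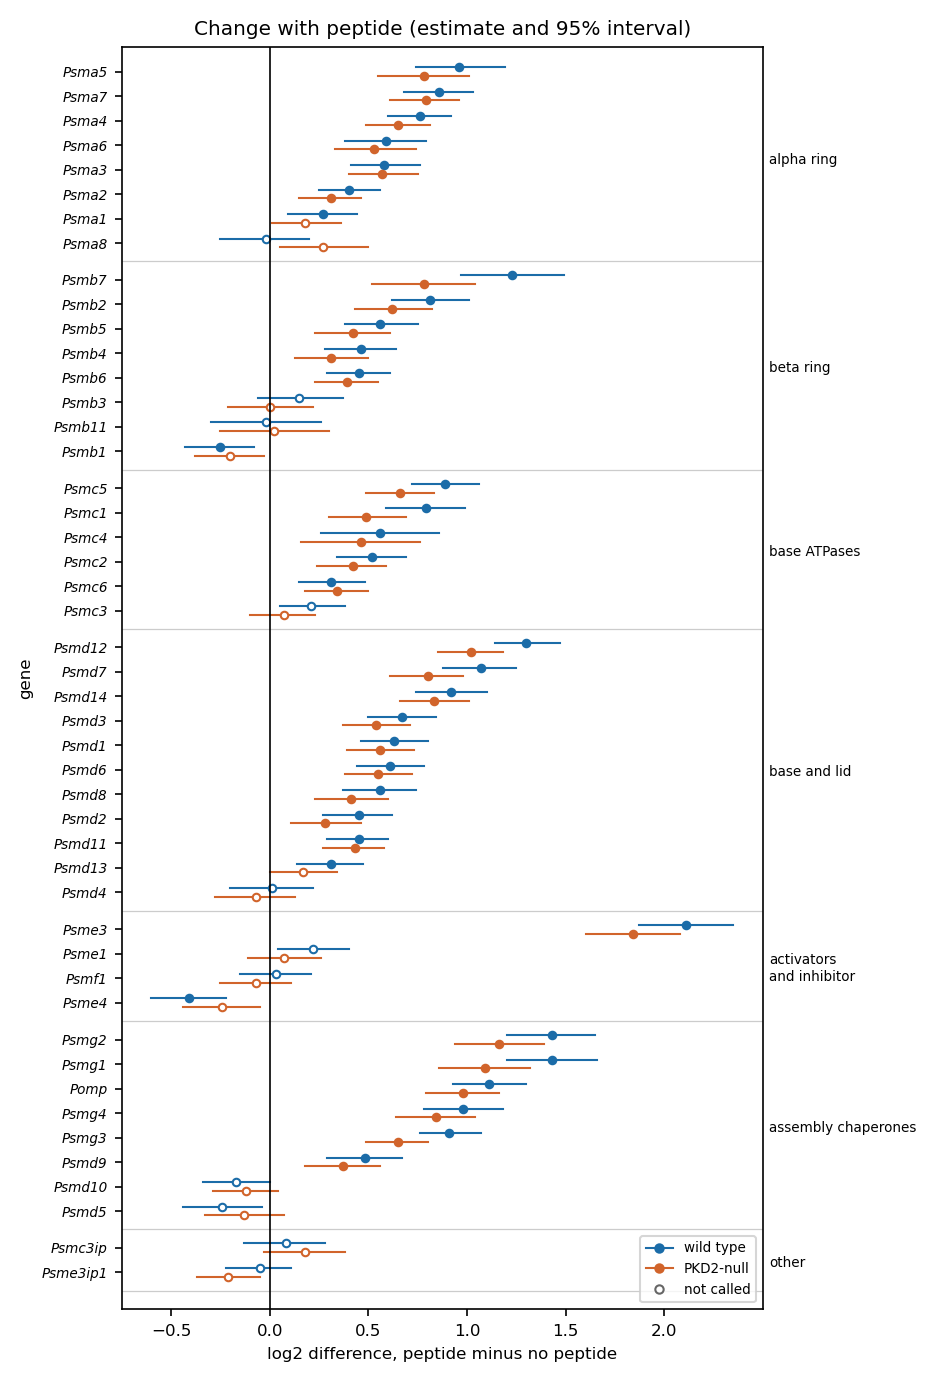
Change with peptide of each of the 47 genes in wild type (blue) and PKD2-null cells (orange), as log2 difference with its 95% interval and sorted within classes, filled points called by limma and open points not called. Most points lie right of 0 in both genotypes, from 0.27 for Psma1 to 2.11 for Psme3 among those called in wild type, and Psmb1 and Psme4 lie left of it.

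The activators went different ways. Psme3, which encodes the nuclear activator PA28gamma that lets the core degrade some proteins without ubiquitin, had the largest rise of all 47 genes. Its values went from 7.67, 7.80 and 7.79 to 9.95, 9.81 and 9.84 in wild type (2.11, 4.32-fold, SE 0.11, adjusted p = 2.6e-08, limma). In null cells they went from 8.08, 7.99 and 7.62 to 9.74, 9.71 and 9.76 (1.84, 3.58-fold, adjusted p = 1.5e-07). A second, dimmer probe set of the gene gave 2.13 and 1.97. A further one, at a mean level of 4.21, gave 0.02 and 0.09 (adjusted p = 0.94 and 0.72), and the mean over all 3 gave 1.42 and 1.30, both called. Psme1, a subunit of the interferon-induced cytoplasmic activator, was at 12.30, 12.31 and 12.14 without and 12.51, 12.47 and 12.43 with peptide in wild type (0.22, adjusted p = 0.065) and at 12.21, 12.34 and 12.21 and 12.32, 12.43 and 12.24 in null cells (0.07, adjusted p = 0.63). It was called in wild type under 3 of the other settings tried, such as without dim probe sets (adjusted p = 0.033).

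Psme4, which encodes the nuclear activator PA200, had the largest fall. Its values went from 10.01, 9.95 and 10.0 to 9.63, 9.39 and 9.71 in wild type (-0.41, SE 0.0886, adjusted p = 0.003, limma) and from 9.98, 9.93 and 9.92 to 9.76, 9.67 and 9.66 in null cells (-0.24, adjusted p = 0.066). The groups did not overlap in either genotype. Without wild-type peptide replicate 2, the lowest of the 12 values, the null change was called (-0.24, adjusted p = 0.028). Of its 2 other probe sets above level 7, 1 fell in wild type (-0.27, adjusted p = 0.031) and the other did not pass (-0.03, adjusted p = 0.9). With the mean over all probe sets the wild-type fall was not called (-0.23, adjusted p = 0.085). Psmf1, an inhibitor and regulator of the core, changed by 0.03 and -0.07 and was not called.

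Chaperones of the core particle all rose. The 5 were called in both genotypes, with a median of 1.11 in wild type and 0.98 in null cells. Psmg1 and Psmg2 encode a pair that starts the alpha ring. Psmg1 went from 8.00, 8.18 and 8.16 to 9.43, 9.67 and 9.53 in wild type (1.43, 2.69-fold, SE 0.105, adjusted p = 4.4e-07, limma) and from 8.29, 8.57 and 8.22 to 9.38, 9.49 and 9.49 in null cells (1.09, 2.13-fold, adjusted p = 6.6e-06). Psmg2 went from 8.88, 8.59 and 8.51 to 10.15, 10.05 and 10.06 in wild type (1.43, 2.69-fold, adjusted p = 3.9e-07) and from 8.85, 8.62 and 8.72 to 9.94, 9.82 and 9.92 in null cells (1.16, 2.24-fold, adjusted p = 3.4e-06). The partners of this pair therefore had the same fold in wild type.

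Psmg3 and Psmg4 encode a second pair that acts on the alpha ring. Psmg3 went from 8.35, 8.41 and 8.36 to 9.26, 9.32 and 9.28 in wild type (0.91, SE 0.0703, adjusted p = 6.6e-07, limma) and from 8.40, 8.40 and 8.44 to 9.04, 9.01 and 9.13 in null cells (0.65, adjusted p = 1.9e-05). Psmg4 changed by 0.98 and 0.84. Pomp, the chaperone that guides the beta ring and the joining of its precursors, went from 10.87, 11.04 and 10.95 to 12.03, 12.11 and 12.04 in wild type (1.11, 2.16-fold, adjusted p = 6.5e-07) and from 11.08, 11.11 and 11.00 to 11.97, 11.96 and 12.18 in null cells (0.98, 1.97-fold, adjusted p = 3.1e-06). Chaperones of the base did not share this. Psmd9 rose (0.48 and 0.37, adjusted p = 0.00081 and 0.0068), while Psmd5 (-0.24 and -0.13) and Psmd10, which encodes gankyrin (-0.17 and -0.12), were not called.

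The 2 genes caught by name were not called. Psmc3ip, a cofactor of meiotic recombination, had changes of 0.08 and 0.18 (adjusted p = 0.63 and 0.23, limma), and Psme3ip1, which encodes a protein that binds the Psme3 product, of -0.05 and -0.21 (adjusted p = 0.69 and 0.063).

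**Figure D4:**
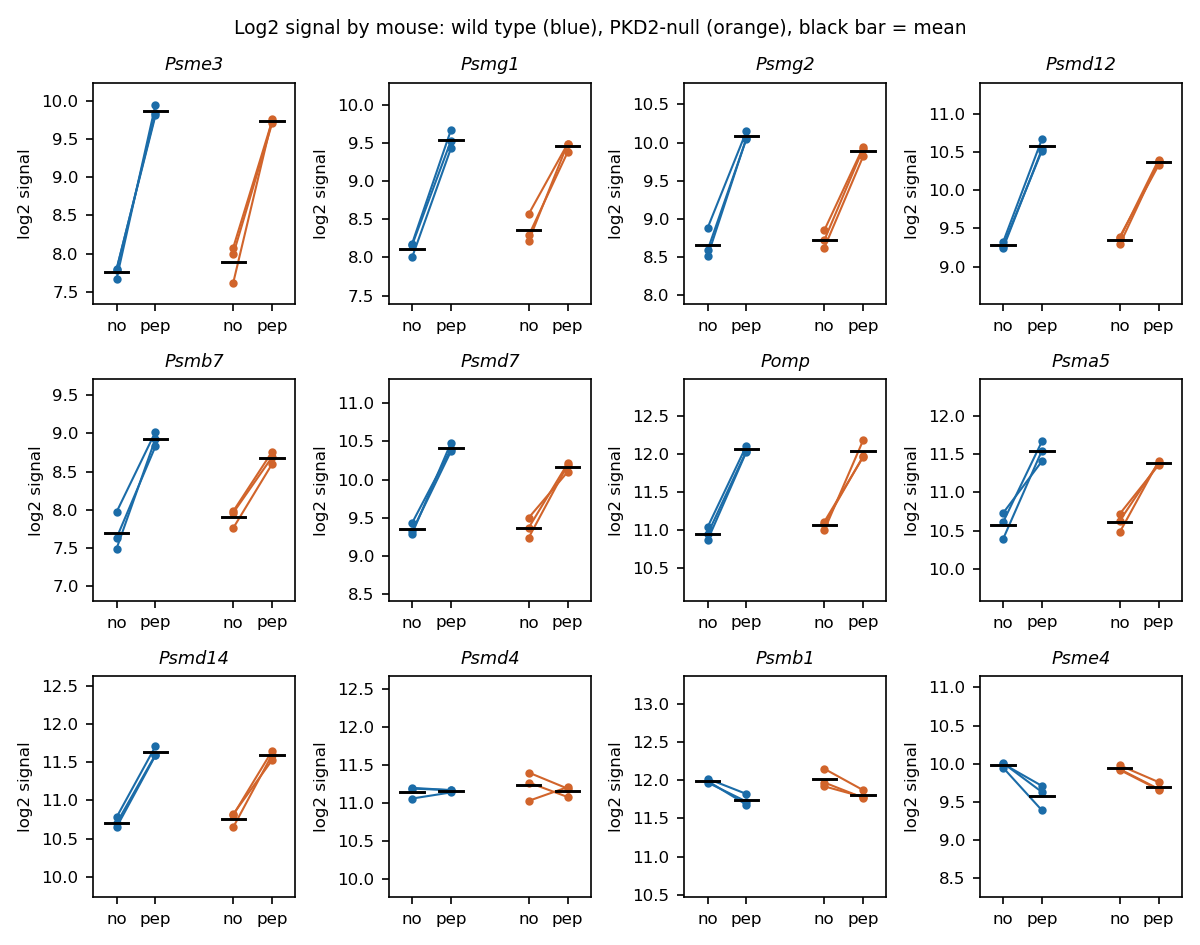
Log2 signal of 12 genes without (no) and with (pep) peptide, lines joining the 2 arrays of a mouse, wild type in blue and PKD2-null in orange, black bars at the group means, all panels spanning the same log2 range. The first 9 genes go up in all 6 mice, Psmd4 is level and Psmb1 and Psme4 go down in all 6 mice.

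Genes that work with the proteasome were read from a list of 31, of which 21 had a probe set of their own. In wild type 10 rose and 6 fell, and in null cells 8 rose and 6 fell. The shares in wild type were 47.6% up and 28.6% down, beside 15.1% and 20.4% over all genes and 32.2% and 38.6% above level 8. In null cells they were 38.1% and 28.6%, beside 12.5% and 19.0% over all genes and 29.4% and 34.9% above level 8. In both genotypes the share that fell lay between these backgrounds. Uchl5 and Usp14, the deubiquitinases that bind the cap, rose by 0.58 and 0.76 in wild type and 0.29 and 0.54 in null cells. Txnl1, a thioredoxin-like protein of the cap, rose by 0.83 and 0.50, Rad23b, a shuttle for ubiquitin-tagged proteins, by 0.77 and 0.64, and Uba6, a ubiquitin-activating enzyme, by 0.77 and 0.83. Sem1, a small lid subunit outside the name rule, was not called (0.14 in both genotypes, adjusted p = 0.18 and 0.21, limma).

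Among regulators of subunit genes and other genes of the list the directions differed. Nfe2l1, the factor that raises subunit genes when proteasome activity is short, rose by 0.46 and 0.33 (adjusted p = 0.00058 and 0.0082, limma). Ngly1, the deglycosylating enzyme that processes the Nfe2l1 product, had the largest fall of the list, from a mean of 9.38 to 8.03 in wild type (-1.35, 2.56-fold lower, adjusted p = 6.5e-07) and from 9.31 to 8.09 in null cells (-1.22, adjusted p = 2.5e-06). Nfe2l2, the oxidative stress factor, fell by 0.80 and 0.82 on the log2 scale. Akirin2, which helps to bring proteasomes into the nucleus, had changes of -0.44 and -0.38, and Zfand5, which stimulates the cap, of -0.41 and -0.25. Ubqln2, a shuttle, changed by -0.58 and -0.38 and Zfand2a by -0.49 and -0.42, and all these falls were called in both genotypes.

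Without antigen the genotypes did not differ at the threshold in any of the 47 genes. Over all genes 0.011% were called higher and 0.033% lower in null cells, and over genes above level 8 the shares were 0.0397% and 0.0596%. The median difference of the set was 0.06, against 0.01 over all genes and 0.05 over genes above level 8. An unadjusted p under 0.05 was reached by 1928 of all 18193 genes, 615 of the 5035 above level 8 and 1 of the 47. That gene was Psmg1, with 8.29, 8.57 and 8.22 in null against 8.00, 8.18 and 8.16 in wild-type cells (0.24, 95% interval 0.02 to 0.47, adjusted p = 0.52, limma). Psmb3 (0.18, adjusted p = 0.64) and Psmc1 (0.17, adjusted p = 0.64) followed, and in all the 95% intervals of the 47 genes lay between -0.41 and 0.47. In 6 of the 47 genes the ranges of the 2 genotypes did not overlap, a count not made over all genes.

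With antigen again 0 of the 47 genes were called between the genotypes. Over all genes 1.09% were called higher and 0.544% lower, and over genes above level 8 the shares were 2.16% and 0.655%. The set had a median difference of -0.05, against medians of -0.03 over all genes and 0.04 over those above level 8. The difference was below 0 for 35 of the 47 genes, 10279 of all 18193 and 1991 of the 5035 above level 8. The smallest p-values belonged to Psmg3 (-0.23, 95% interval -0.38 to -0.07, adjusted p = 0.16, limma), Psmd7 (-0.25, -0.43 to -0.06, adjusted p = 0.2) and Psmd12 (-0.21, -0.37 to -0.05, adjusted p = 0.21). An unadjusted p under 0.05 was found for 4 of the 47. The same held for 3202 of all 18193 genes and 1328 of the 5035 above level 8. For Psmg3, Psmd7 and Psmd12 the null values with peptide lay below the wild-type values. In 16 of the 47 genes the ranges of the genotypes did not overlap, in one direction or the other. This overlap was not counted over all genes, so the figure has no background beside it. The 95% intervals of the set lay between -0.51 and 0.41. B cell marker levels differed between the genotypes in these same arrays, as given above, and their part in these differences was not tested.

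The difference of the peptide effects was tested directly. Of the 47 genes 0 were called, and over all genes 0.0055% were called lower and 0% higher. The null effect minus the wild-type effect was below 0 for 39 genes, with a median of -0.11. Over all 18193 genes it was below 0 for 10051, with a median of -0.02, and over the 5035 above level 8 for 2436, with a median of 0.01. Psmb7 had the largest difference, a rise of 1.23 in wild type against 0.78 in null cells (-0.45, 95% interval -0.82 to -0.08, adjusted p = 0.64, limma). Psmg1 (-0.34), Psmc1 (-0.29), Psmd12 (-0.29), Psmd7 (-0.27) and Psmg3 (-0.27) were the other genes with an unadjusted p under 0.05, 6 in all. Such a p was reached by 1402 of all 18193 genes and 640 of the 5035 above level 8. The 6 of 47 lay near the share above level 8. For Psme3 the difference was -0.27 (-0.61 to 0.07).

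Smaller estimates in null cells were common among genes that rose on average over the genotypes. Of the 2596 genes whose mean change over the genotypes was 0.3 or more, 80.0% had the smaller estimate in null cells, with a median difference of -0.17, from a median of 0.81 in wild type and 0.64 in null cells. Above level 8 there were 1536 such genes, 82.4% of them with the smaller estimate in null cells, and the median difference was -0.16. Of the 47 proteasome genes 32 rose by that much, and 31 of these (96.9%) had the smaller estimate in null cells. The median difference of the 32 was -0.14, from 0.72 to 0.57. The genes were picked by their average change over both genotypes in these same data, so the counts are a description only. The proteasome genes are part of the larger lists, and no test was made between the lists.

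**Figure D5:**
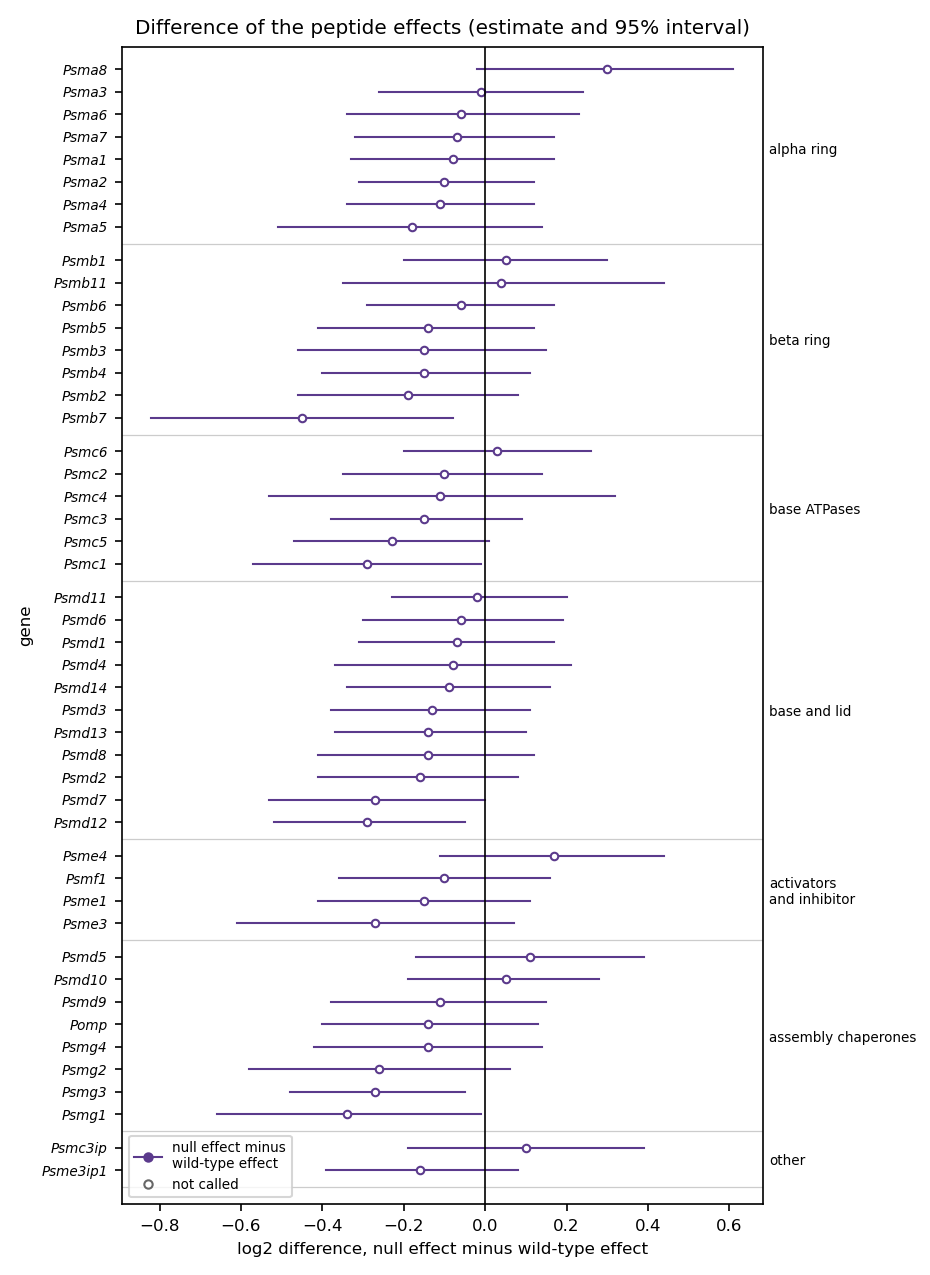
Difference of the peptide effects, null effect minus wild-type effect, for each of the 47 genes as log2 difference with its 95% interval, sorted within classes, where 0 genes were called. Most points lie left of 0, with Psmb7 furthest left at -0.45, and 41 of the 47 intervals include 0.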

How the data were processed

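The authors deposited log2 signals of 12 arrays, made with Affymetrix Expression Console 1.1 per the submitters' processing notes. No label names the normalization, and the deposited log2 values were taken unchanged. With 64 controls left out, limma 3.58.1 (R 4.3.3) fitted the 4 groups over 45037 probe sets, and p-values were adjusted by Benjamini and Hochberg. No filter on low values was used, so all 47 genes were tested. The script was tested on simulated data. The number of arrays limits the precision.

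The members and lists were chosen with earlier results of these data known. Values by array are given for the 3 largest wild-type changes of each class, the catalytic subunits, Pomp, Psme1, Psme3, genes that fell, and the 3 smallest p-values of each genotype comparison. Values by array of Psmd4, the cut at level 8 and the mean change of 0.3 were chosen after the values were seen.

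The labels' animal numbers pair the arrays of a mouse. Deviations from the group means correlated by 0.116 to 0.577 within a mouse. The block for the mouse, left-out arrays, quantile normalization, a filter on dim probe sets, other probe sets, another variance model and fits of only the groups compared were the alternatives. Names ending in x_at or s_at, used for Psma6, Psmc2, Psmd11 and Psme4, belong to probe sets that may also match transcripts of other genes. The setting called specific probe sets left these out, and also names ending in a_at, used for genes such as Psma5 and Psmb1.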

Additional observations from a re-analysis of the deposited data

How the results depend on the processing

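The count of genes that rose stayed within 1.5 times of its value under every alternative, at 29 to 36 in wild type and 29 to 33 in null cells, and 0 genes were called in the genotype comparisons and in the difference of the effects throughout. With the mouse as a replicate block (pairing by animal) 34 rose and 2 fell in wild type and 32 rose and 0 fell in null cells, and no count of calls changed. The count of falls moved. In wild type, 2 in the main setting, it was 1 with the mean over all probe sets, with specific probe sets and with only the groups compared, and 1 to 2 when an array was left out. In null cells, 0 in the main setting, it was 3 with quantile normalization, without dim probe sets and with trend and robust variances, 1 with the mean over all probe sets, and 0 to 1 when an array was left out. The median change in wild type was 0.46 with quantile normalization, 0.45 with the mean over all probe sets, 0.52 with specific probe sets and 0.51 to 0.57 with an array left out. In null cells it was 0.35 with quantile normalization. Signs of small changes turned in 7 cases, none of them called. For null cells these were Psmb3 (-0.08 with quantile normalization, -0.07 without null unstimulated replicate 3 and -0.01 without null peptide replicate 2, within -0.07 to 0.05 over all arrays left out in turn), Psme1 (-0.03 with quantile normalization) and Psmb1 (0.04 with specific probe sets). For null against wild type with peptide they were Psmd7 (0.01) and Psmg3 (0.02), with the mean over all probe sets. The cause was not tested. Psma5 lost its wild-type call with specific probe sets (0.14, adjusted p = 0.33), where only a probe set near the lower end of the scale was left. The specific probe sets covered 42 of the 47 genes and the dim filter 45.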

Other observations

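Members with several probe sets allowed a look at the same gene through other probes. The 47 genes had 100 probe sets in all, and 18 of the 53 not used above had a mean above 7. Of these 18, 17 changed in the direction of the probe set used in wild type and 15 did so past the threshold. For Psmd11 the 3 others gave 0.65, 0.44 and 0.64, beside 0.45 for the one used. For Psmd4 a second probe set gave 0.03 in wild type and -0.02 in null cells, as level as the one used. For Psmf1 the sign differed (-0.05 against 0.03), with both near 0. Below that level, a second probe set of Psmc3ip rose in wild type (0.44, adjusted p = 0.011, limma), which the one used did not. A dim probe set of Psmd13, at a mean level of 4.72, fell in wild type (-0.79, adjusted p = 0.0035), against a rise of 0.31 for the one used.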
